A study of Mus musculus with 3 samples.

Results

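The genes described here are 10 genes of CD8+ T cells that restrain the T cell response. They comprise 8 inhibitory receptor genes (Pdcd1, Ctla4, Lag3, Havcr2, Tigit, Cd160, Btla and Vsir) and 2 Tox transcription factor genes (Tox and Tox2). They were chosen by gene symbol for their known role, with earlier results of these data in hand. All 10 were found among the 17121 genes of the deposited expression table. RNA was sequenced from CD8+ T cells of the spleen and lymph nodes of wild-type mice, after 3 days in culture. The aged TRM sample came from mice of 18 months and received antibodies to CD3 and CD28 (1 µg/ml), IL-15 (20 ng/ml) and TGF-beta (5 ng/ml), a mixture that the labels tie to tissue-resident memory (TRM). The young TRM sample received the same mixture but came from mice of 6 weeks. The young TCR sample, also from mice of 6 weeks, received the antibodies alone, which act through the T cell receptor (TCR) and its co-receptor CD28. No aged sample with antibodies alone was analysed here. Each group thus held 1 sample, each sample had 2 numbered columns of values, and the labels give neither the number of mice or cultures behind a sample nor the meaning of the numbers. The columns were therefore taken as repeat measurements, and no difference could be set against the variation between mice. In whole cultures a lower level can mean fewer cells that express a gene or less RNA per cell, and these cannot be told apart.

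Inhibitory receptors sit on activated T cells and dampen signals from the T cell receptor and from CD28. CTLA-4 competes with CD28 for CD80 and CD86, PD-1 and BTLA recruit phosphatases through tyrosine motifs in their tails, and TIGIT competes with CD226 for CD155. In chronic infection and in tumours several of these receptors are expressed together on exhausted CD8+ T cells, where the DNA-binding protein TOX maintains that state, but most of them are also induced by ordinary activation. Resident memory CD8+ T cells in tissues are likewise known to carry several of them.

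Promoter sequence is shown for Havcr2 and Cd160, which passed the 2-fold rule given with the comparisons, and for Vsir, which differed in the opposite sense without passing it. The sequences run from 250 bases before to 50 bases after the start of the gene, on the gene's own strand, from RefSeq on GRCm38.p6. Havcr2 lies at chr11:46454681-46454980 (plus strand), the Cd160 starts at chr3:96829302-96829601 and chr3:96814472-96814771 (minus strand), and Vsir at chr10:60346601-60346900 (plus strand). Capitals mark matches, on either strand, to short motifs of 7 factor families, namely AP-1 (TGANTCA), NFAT (TGGAAA), T-box (AGGTGT), STAT (TTCNNNGAA), SMAD (CAGACA), RUNX (TGTGGT) and TCF/LEF (CTTTGA).
Havcr2: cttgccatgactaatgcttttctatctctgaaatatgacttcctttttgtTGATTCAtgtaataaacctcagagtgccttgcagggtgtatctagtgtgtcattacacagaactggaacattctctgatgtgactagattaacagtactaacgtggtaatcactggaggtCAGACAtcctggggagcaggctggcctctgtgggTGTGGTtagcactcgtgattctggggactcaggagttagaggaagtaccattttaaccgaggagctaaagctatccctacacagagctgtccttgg
Cd160 first start: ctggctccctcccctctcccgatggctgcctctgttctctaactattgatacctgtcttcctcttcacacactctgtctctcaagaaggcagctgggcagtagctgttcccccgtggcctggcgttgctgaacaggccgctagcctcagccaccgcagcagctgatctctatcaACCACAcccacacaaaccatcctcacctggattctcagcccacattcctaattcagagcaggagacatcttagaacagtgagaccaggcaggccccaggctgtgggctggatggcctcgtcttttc
Cd160 second start: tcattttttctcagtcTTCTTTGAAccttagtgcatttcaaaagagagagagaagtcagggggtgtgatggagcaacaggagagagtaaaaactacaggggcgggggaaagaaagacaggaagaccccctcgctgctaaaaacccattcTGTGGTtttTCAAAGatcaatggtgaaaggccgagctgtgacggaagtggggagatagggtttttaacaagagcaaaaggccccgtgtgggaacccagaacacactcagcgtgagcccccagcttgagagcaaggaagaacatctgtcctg
Vsir: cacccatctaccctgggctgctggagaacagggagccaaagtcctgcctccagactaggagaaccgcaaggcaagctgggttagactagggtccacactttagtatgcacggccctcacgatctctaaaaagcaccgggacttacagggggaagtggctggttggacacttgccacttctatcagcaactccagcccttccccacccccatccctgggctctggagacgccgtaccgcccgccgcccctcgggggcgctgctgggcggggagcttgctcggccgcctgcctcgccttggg
The Havcr2 window held an AP-1 match 200 bases before the start, a SMAD match 80 bases before it and a RUNX match 46 bases before it. Of 32544 promoters of the same length, 7.79% held the AP-1 letters, 20.9% the SMAD letters and 16.7% the RUNX letters. The first Cd160 start had 1 RUNX match. The second had a RUNX match, a STAT match and 2 TCF/LEF matches, of which 1 lies inside the STAT match, and 8.33% of promoters held the STAT letters and 5215 of 32544 the TCF/LEF letters. The Vsir window held none of the 7 motifs. Such matches are frequent and describe the letters alone. Promoters of 8 of the 10 genes were in the sequence table, without Lag3 and Tox.

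In the RefSeq annotation of GRCm38.p6, the receptor genes Ctla4, Pdcd1 and Btla lie as follows, with Ctla4 at chr1:60909025-60915832, Pdcd1 at chr1:94038305-94052553 and Btla at chr16:45223705-45252895. The other receptor genes are Havcr2 at chr11:46454931-46481255, Tigit at chr16:43626137-43665125, Cd160 at chr3:96798763-96829351, Lag3 at chr6:124904359-124912434 and Vsir at chr10:60346851-60430294. The Tox genes are Tox at chr4:6686353-6991557 and Tox2 at chr2:163203058-163324172. The span of Vsir overlaps that of Cdh23 and the span of Tigit that of Zbtb20, without shared exon bases.

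Levels can be compared between genes only per transcript length, for which the deposited TPM, a level scaled by transcript length and library total, was used. Ctla4 had the highest TPM in each sample, followed by Lag3 and Tigit, and these genes held 74.3% of the summed TPM of the 10 genes in aged TRM, 72.2% in young TRM and 74.8% in young TCR. Ctla4 averaged 270 TPM in aged TRM, 239 TPM in young TRM and 274 TPM in young TCR. Those values lay above 96.6%, 96.2% and 96.8% of the genes detected in the same samples. Tox2 stood at the other end of the order, at 0.890, 0.530 and 0.105 TPM.

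The middle of the order differed between samples. In aged TRM it ran Pdcd1, Vsir, Cd160, Havcr2 and Btla (79.3, 56.2, 31.4, 25.5 and 13.65 TPM). In young TRM it ran Vsir, Pdcd1, Btla, Cd160, Tox and Havcr2, so that the TPM of Havcr2 (5.78) lay below that of Tox (11.4) there and in no other sample. In young TCR it ran Vsir, Havcr2, Pdcd1, Cd160 and Btla, where Vsir, Havcr2 and Pdcd1 (46.3, 44.9 and 43.7 TPM) were not separated as neighbours in the order, since the columns of Havcr2 overlapped those of both others. The other neighbours in each order did not overlap between columns. The summed TPM of the 10 genes was 848 in aged TRM, 618 in young TRM and 739 in young TCR.

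**Figure D1:**
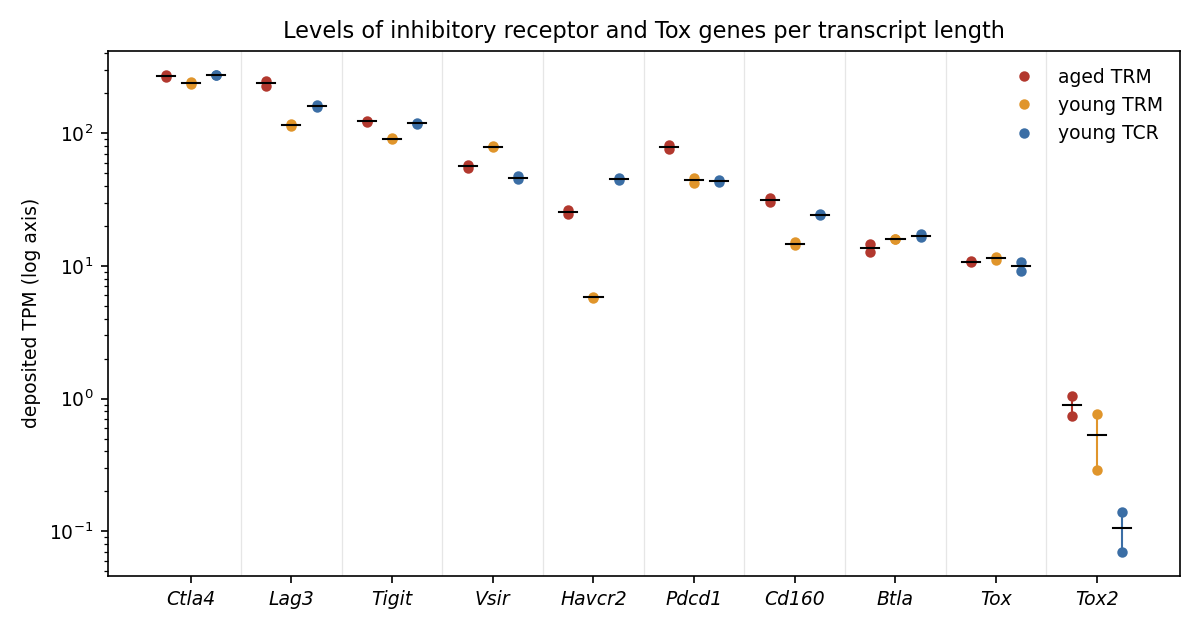
Deposited TPM of each gene on a log axis, with 1 point per numbered column, a bar at their mean, and the groups aged TRM, young TRM and young TCR from left to right. Havcr2 stands out with 5.78 TPM in young TRM against 44.9 TPM in young TCR, while Ctla4 lies between 239 and 274 TPM throughout.

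Differences between samples are given from the deposited read counts, as CPM, the reads per library total, scaled by the trimmed-mean (TMM) method. Genes are described as risen or fallen, or as called, where CPM with 1 added differed 2-fold or more and the 95% counting interval of its fold left out 1. Such intervals cover counting error only, and folds are printed without the added 1. The table gave 40385477 reads to aged TRM, 36021887 to young TRM and 39915663 to young TCR. For the 9 genes other than Tox2, the columns of a sample differed by at most 1.17-fold in aged TRM, 1.08-fold in young TRM and 1.15-fold in young TCR.

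The first comparison asks what IL-15 and TGF-beta add to receptor stimulation in young cells. Havcr2, the TIM-3 gene, fell and was the only one of these genes to be called. Vsir was higher and Cd160 and Lag3 were lower by less than 2-fold, and Pdcd1, Ctla4, Tigit, Btla and Tox differed by at most 1.16-fold. Of the 9 genes that reached 1 CPM, 0 were called higher and 1 lower, against 4.18% called higher and 3.6% called lower among all 11588 genes tested. Their median log2 ratio was -0.15, against 0.02 over all genes. Tox2 had too few reads to be tested.

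The second comparison asks what age changes under the TRM mixture. Havcr2 and Cd160 rose in aged TRM relative to young TRM, and Lag3 and Pdcd1 were higher by less than 2-fold. Vsir and Btla were lower by less than 2-fold, and Ctla4, Tigit and Tox differed by at most 1.15-fold. Of 10 genes tested, 2 were called higher and 0 lower, against 2.25% called higher and 1.15% called lower among 11575 genes. The median log2 ratio was 0.29, against -0.01 over all genes. Both comparisons use the young TRM sample, once above and once below the line, so their values are given side by side and not as support for each other.

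**Figure D2:**
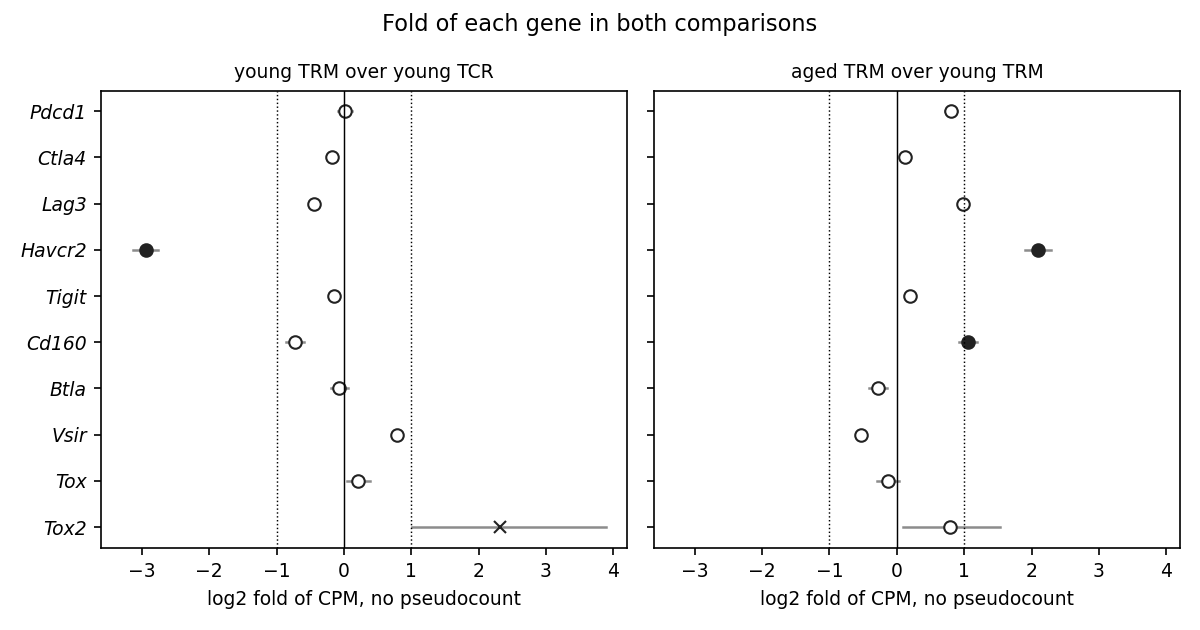
Log2 fold of CPM (no pseudocount) for each gene in young TRM over young TCR (left) and aged TRM over young TRM (right), with 95% counting intervals as lines, filled points for called genes and dotted lines at 2-fold. A cross marks Tox2 in the left panel, which did not reach 1 CPM. Havcr2 lies far to the left in the first panel, and Havcr2 and Cd160 are the called genes to the right in the second.

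Havcr2 encodes TIM-3, a receptor of differentiated effector and exhausted T cells, and also of myeloid cells, that binds galectin-9, CEACAM1, HMGB1 and phosphatidylserine. It had 35.3 and 33.3 CPM in the columns of aged TRM, 7.88 and 8.15 CPM in young TRM, and 61.1 and 62.6 CPM in young TCR. The samples were thus well apart, with young TRM far below the others and young TCR above aged TRM. Young TRM was 7.70-fold lower than young TCR (interval 6.81 to 8.74, log2 ratio -2.80), and over the 4 pairings of columns the gap lay between 7.50-fold and 7.94-fold. Only 18 of the 11588 genes tested had a lower log2 ratio. Aged TRM was 4.27-fold higher than young TRM (3.75 to 4.86, log2 ratio 1.97), a log2 ratio that 41 of 11575 genes exceeded.

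The ligand genes of TIM-3 did not reach the calling rule in either comparison. Lgals9, which encodes galectin-9, had 113 CPM in aged TRM, 166 CPM in young TRM and 94.8 CPM in young TCR. Ceacam1 had 12.5, 12.7 and 13.5 CPM in the same order of samples, and Hmgb1 had 702, 747 and 705 CPM. Bag6, whose product binds the TIM-3 tail, had 206, 205 and 201 CPM. On chromosome 11 the nearest listed gene before Havcr2 is Med7, a subunit gene of the Mediator complex, 12210 bases away, with 29.1, 33.2 and 28.0 CPM.

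Markers of other cell types moved in part with Havcr2, and their part in the result was not tested. Of 10 B and plasma cell markers tested, 8 fell in young TRM relative to young TCR and 3 rose in aged TRM relative to young TRM. The summed level of the 13 listed markers was 211 to 217 CPM in the columns of aged TRM, 187 to 190 CPM in young TRM and 272 to 280 CPM in young TCR, and none was at 0. Xbp1, which T cells also express, made up most of it. The other 12 markers summed to 31.7 CPM in aged TRM, 21.2 CPM in young TRM and 95.3 CPM in young TCR, in the order of Havcr2. The 12 NK and innate lymphoid markers summed to 701 to 739 CPM in aged TRM, 359 to 368 CPM in young TRM and 658 to 702 CPM in young TCR, with none at 0, and most of that was Gzma and Eomes, which CD8+ T cells express too. In that list 5 markers rose and 2 fell (Gzma and Eomes) in young TRM, and 1 rose (Gzma) in aged TRM. Without Gzma and Eomes the other 10 markers summed to 138, 103 and 40.3 CPM in aged TRM, young TRM and young TCR. Young TCR was lowest in that remainder, unlike for Havcr2. Ncr1, which defines NK cells, had 1.18, 2.19 and 0.0493 CPM. The 16 myeloid and dendritic markers summed to 41.2 to 44.0, 50.3 to 55.1 and 35.3 to 38.0 CPM. In that list 1 rose (Mpeg1) and 1 fell (Itgax) in young TRM, and none was called in aged TRM. Without Mpeg1 the other 15 markers summed to 27.2, 23.8 and 32.4 CPM, with young TRM lowest and young TCR highest, as for Havcr2. The macrophage markers Adgre1, Csf1r and C1qa were at or near 0, with Csf1r at 0.197, 0.227 and 0.222 CPM and Adgre1 without a read in young TRM. Some others in the list were higher. Mpeg1 had 15.4, 28.7 and 4.22 CPM, and Cd68 had 4.45, 5.25 and 9.23 CPM. Itgax had 4.21, 3.55 and 8.63 CPM, and Zbtb46 had 11.4, 6.8 and 8.2 CPM.

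Cd160 and Btla encode receptors that share the ligand HVEM, the product of Tnfrsf14. Cd160, an anchored receptor of NK cells and of cytotoxic and resident T cells, had 37.5 and 40.04 CPM in aged TRM, 19.1 and 18.4 CPM in young TRM, and 31.0 and 30.8 CPM in young TCR. Aged TRM was highest and young TRM lowest, with no overlap between columns. Aged TRM was 2.07-fold higher than young TRM (1.89 to 2.27), and the log2 ratio of 1.01 lay close to the threshold. The call was lost with a pseudocount of 5 (0.88) and with column 1 alone (0.94), and over the 4 pairings of columns the fold was 1.96 to 2.17. Young TRM was 1.65-fold lower than young TCR (1.502 to 1.82) and was not called. The NK marker sum given with Havcr2 was lowest in young TRM, as Cd160 was, but the columns of aged TRM and young TCR overlapped in it. Without Gzma and Eomes the other 10 NK markers summed to 138 CPM in aged TRM, 103 CPM in young TRM and 40.3 CPM in young TCR, with young TCR lowest. Most of that remainder was Kit, with 110, 78.4 and 29.6 CPM. The part of the NK markers in the Cd160 result was not tested.

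Btla, an inhibitory receptor gene of lymphocytes, varied little. It had 20.3 and 23.7 CPM in aged TRM, 26.5 and 26.8 CPM in young TRM, and 27.4 and 28.6 CPM in young TCR. Young TRM and young TCR could not be separated at this depth, as the interval of their fold (0.872 to 1.04) held 1, and aged TRM was 1.21-fold lower than young TRM (1.10 to 1.33). Tnfrsf14, the gene of the shared ligand, had 145, 176 and 116 CPM in aged TRM, young TRM and young TCR. It was not called in either comparison, and neither was Tnfsf14, which encodes the HVEM ligand LIGHT.

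Lag3 encodes a receptor related to CD4 that binds MHC class II and lies next to Cd4 on chromosome 6. It had 243 and 223 CPM in aged TRM, 115 and 120 CPM in young TRM, and 166 and 156 CPM in young TCR. The order of samples was that of Cd160, with aged TRM highest. Aged TRM was 1.98-fold higher than young TRM (1.91 to 2.05, log2 ratio 0.98), just under the threshold, and 275 of 11575 genes had a higher log2 ratio. Scaling by totals only (1.02), the authors' TPM (1.03) and column 1 alone (1.08) placed it past 2-fold. Young TRM was 1.37-fold lower than young TCR (1.31 to 1.42). Of its neighbours, Cd4 had 11.6, 12.4 and 10.5 CPM and Ptms, 1241 bases from Lag3 on its other side, had 122, 98.3 and 119 CPM, without a call. Gpr162, beyond Cd4, fell to 0.227 CPM in young TRM, against 2.17 CPM in young TCR, and had 1.08 CPM in aged TRM. Adam10 and Adam17, whose proteases shed LAG-3 from the cell surface, had 230, 230 and 184 CPM and 90.4, 93.2 and 84.5 CPM, without a call.

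Vsir, which encodes the inhibitory receptor VISTA of naive T cells and myeloid cells, was the one receptor gene with its highest level in young TRM. It had 137 and 133 CPM in aged TRM, 198 and 195 CPM in young TRM, and 113 and 116 CPM in young TCR. Young TRM was 1.72-fold higher than young TCR (1.66 to 1.78) and aged TRM was 1.45-fold lower than young TRM (1.40 to 1.51). Neither passed 2-fold. Selplg, whose product PSGL-1 is a VISTA ligand, had 533, 567 and 483 CPM. The neighbouring gene Psap had 386, 427 and 338 CPM. The summed level of the myeloid markers was 42.6 CPM in aged TRM, 52.5 CPM in young TRM and 36.7 CPM in young TCR, with young TRM highest as for Vsir. Mpeg1 set that order, since the other 15 markers summed to 27.2, 23.8 and 32.4 CPM, with young TRM lowest. The part of these markers in the Vsir difference was not tested.

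Pdcd1 encodes PD-1, which is induced by receptor stimulation. It had 71.9 and 77.8 CPM in aged TRM, 44.7 and 41.4 CPM in young TRM, and 41.9 and 42.8 CPM in young TCR. Aged TRM was above both other samples, whose columns overlapped. Aged TRM was 1.75-fold higher than young TRM (1.64 to 1.86, log2 ratio 0.79) and was not called, with 431 of 11575 genes at a higher log2 ratio. Young TRM and young TCR were not separated (1.01-fold, 0.944 to 1.09). Among the ligand genes, Cd274, which encodes PD-L1, rose to 140 CPM in young TRM, against 50.5 CPM in young TCR, and had 112 CPM in aged TRM. Pdcd1lg2, the gene of the second PD-1 ligand, had 25.3, 19.0 and 23.7 CPM and was not called. Ptpn6 and Ptpn11, which encode the phosphatases SHP-1 and SHP-2, had 355, 338 and 187 CPM and 122, 114 and 111 CPM, without a call.

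Ctla4 had the most reads of the 10 genes and was nearly level. It had 259 and 250 CPM in aged TRM, 229 and 239 CPM in young TRM, and 267 and 264 CPM in young TCR. Young TRM was 1.13-fold lower than young TCR (1.10 to 1.17), and aged TRM was 1.09-fold higher than young TRM (1.06 to 1.12). Both intervals left out 1 and the columns did not overlap, but each group held 1 sample. Cd28, the activating counterpart that lies beside Ctla4 on chromosome 1, had 191, 156 and 302 CPM and was not called (log2 ratios of -0.95 in young TRM and 0.29 in aged TRM). Per transcript length the ratio of Ctla4 to Cd28 was thus 3.03 in aged TRM, 3.38 in young TRM and 1.996 in young TCR, and the column values of young TRM (3.26 to 3.51) lay apart from those of young TCR (1.92 to 2.08). Icos, on the other side of Ctla4, had 86.9, 89.1 and 92.0 CPM.

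The shared ligands of CTLA-4 and CD28 were weakly expressed in these T cell cultures. Cd80 fell to 4.26 CPM in young TRM, against 14.6 CPM in young TCR, and rose in aged TRM to 13.5 CPM. Cd86 had 2.07, 2.33 and 4.05 CPM and was not called. Trat1, whose product helps bring CTLA-4 to the cell surface, fell to 6.95 CPM in young TRM, against 33.1 CPM in young TCR, and had 3.30 CPM in aged TRM. Lrba, which protects CTLA-4 from degradation, had 60.0, 48.4 and 49.0 CPM.

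Regulatory T cells express much Ctla4 and Tigit, so their markers are given here. Foxp3, their defining transcription factor, rose to 33.6 CPM in young TRM, against 1.95 CPM in young TCR, and fell in aged TRM to 3.71 CPM. Cd4 had 11.6 CPM in aged TRM, 12.4 CPM in young TRM and 10.5 CPM in young TCR, and was not called in either comparison. The 10 listed markers of regulatory and CD4 T cells summed to 1755 to 1813 CPM in the columns of aged TRM, 1544 to 1565 CPM in young TRM and 1134 to 1176 CPM in young TCR, with none at 0. Of 9 tested, 3 rose and 4 fell in young TRM, and 0 rose and 2 fell in aged TRM. Il2ra, which activated CD8+ T cells also express, made up most of the sum. The other 9 markers summed to 266, 439 and 287 CPM, with young TRM highest. Ikzf2 was the largest of these in each sample, with 168, 315 and 117 CPM. The 4 that fell in young TRM were Zbtb7b, Gata3, Cxcr5 and Bcl6, and Gata3 had 45.4, 39.4 and 88.4 CPM. The part of the listed markers in the levels of Ctla4 and Tigit was not tested.

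Tigit had 102.5 and 102.8 CPM in aged TRM, 90.6 and 88.4 CPM in young TRM, and 98.3 and 99.9 CPM in young TCR. By these counts aged TRM was 1.15-fold higher than young TRM (1.10 to 1.203), and young TRM was 1.11-fold lower than young TCR (1.06 to 1.16). The deposited TPM gave a wider gap, with 122 TPM in aged TRM, 91.2 TPM in young TRM and 118 TPM in young TCR. The difference lies in the transcript length that the counts and TPM imply for Tigit in each column. Relative to the mean of all columns this length was 0.963 and 0.977 in aged TRM, 1.10 and 1.09 in young TRM, and 0.919 and 0.970 in young TCR. For the other 8 genes apart from Tox2 it stayed between 0.988 and 1.02. The files do not show which transcripts of Tigit were counted.

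TIGIT and its activating counterpart CD226 bind CD155, the product of Pvr, and CD96 binds it too. Cd226 had 72.2, 106 and 132 CPM in aged TRM, young TRM and young TCR, and was not called in either comparison. Per transcript length Tigit exceeded Cd226 by a ratio of 2.56 in aged TRM (2.50 to 2.61 over columns), 1.30 in young TRM (1.29 to 1.32) and 1.33 in young TCR (1.28 to 1.38). Aged TRM thus had a higher ratio than both young samples, whose columns overlapped. From CPM, which is not scaled by length, the ratio was 1.42 in aged TRM (1.40 to 1.44), 0.844 in young TRM (0.777 to 0.941) and 0.7502 in young TCR (0.725 to 0.777). Aged TRM was again highest. The ranges of the young samples then did not overlap, though the gap was narrow (lowest 0.7773 in young TRM, highest 0.777 in young TCR). The TPM ratio of Tigit to Cd96 was 0.712, 0.547 and 1.08. Pvr had 25.4, 25.4 and 18.6 CPM. Nectin3, the gene of a further TIGIT ligand, rose to 2.85 CPM in aged TRM, against 0.397 CPM in young TRM, and had 0.888 CPM in young TCR.

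The Tox genes encode DNA-binding proteins with an HMG box. By TPM, Tox lay above 49.8%, 50.1% and 49.4% of the genes detected in aged TRM, young TRM and young TCR, while Tox2 was weakly expressed. Tox had 16.2 and 15.6 CPM in aged TRM, 16.7 and 18.1 CPM in young TRM, and 13.97 and 16.04 CPM in young TCR. Young TRM was 1.16-fold higher than young TCR (1.04 to 1.30), and for aged against young TRM the interval held 1 (0.817 to 1.02). An antisense gene, Gm11802, overlaps 260 of 3961 exon bases of Tox in the annotation, and whether reads were counted by strand is not stated. Tox2 rested on 52 reads in aged TRM, 26 in young TRM and 6 in young TCR. Its columns were far apart, with 1.09 and 1.47 CPM, 1.14 and 0.410 CPM, and 0.197 and 0.0990 CPM. Aged TRM exceeded young TRM by 1.73-fold (1.06 to 2.89) although the columns overlapped, and young TRM exceeded young TCR by 4.99-fold with a wide interval (2.01 to 14.8).

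Aged TRM and young TCR differ in age and cytokines at once, so only their values are given. Aged TRM had 1.77 times the CPM of young TCR for Pdcd1, 1.45 times for Lag3, 1.25 times for Cd160 and 1.18 times for Vsir. The ratio was 0.554 for Havcr2 and 0.787 for Btla, and Ctla4, Tigit and Tox lay between 0.958 and 1.06.

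**Figure D3:**
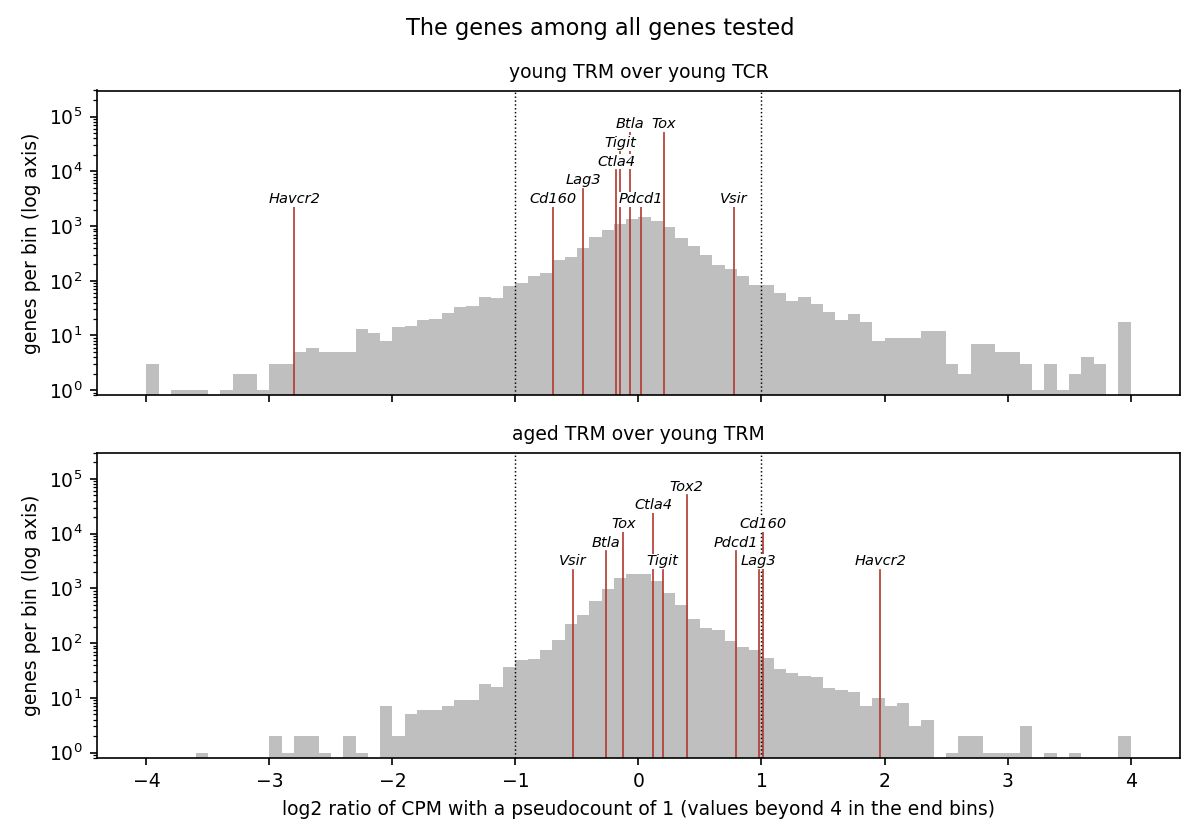
Number of genes per bin of the log2 ratio of CPM (pseudocount 1) for young TRM over young TCR (above) and aged TRM over young TRM (below), with red lines at the genes described here and dotted lines at 2-fold. Havcr2 lies in the tail of both distributions (-2.80 and 1.97), and Lag3 (0.98) and Cd160 (1.01) lie on either side of the 2-fold line in the lower panel.

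Lists of genes related by role were compared in the same way, with the shares called among all genes given above. They were not tested as sets. Of 12 ligand genes tested in young TRM against young TCR, Cd274 rose and Cd80 fell, and of 13 tested in aged TRM against young TRM, Cd80 and Nectin3 rose. Of 14 costimulatory and adhesion counterparts, Slamf6, a receptor of the SLAM family, fell to 22.4 CPM in young TRM, against 97.6 CPM in young TCR, and none was called with age. Their median log2 ratios were -0.28 and -0.06. Of 23 genes for signalling partners of the receptor tails, Trat1 and Sh2d1a fell in young TRM, and Pag1, an adaptor that brings the kinase CSK to the membrane, fell to 27.2 CPM in aged TRM, against 58.9 CPM in young TRM. Sh2d1a, which encodes the adaptor SAP, had 11.7 CPM in young TRM and 43.6 CPM in young TCR.

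Other inhibitory receptors moved in both directions. Of 15 tested, 3 rose and 2 fell in young TRM relative to young TCR, with a median log2 ratio of 0.43. Klrc1, which encodes NKG2A, rose to 117 CPM in young TRM, against 40.01 CPM in young TCR. Cd101 rose to 31.4 CPM, against 9.84 CPM, and Pvrig, whose product binds nectin-2, rose to 3.55 CPM, against 0.444 CPM, in the same samples. Lilrb4a, an inhibitory receptor gene of the immunoglobulin family, fell to 22.7 CPM, against 67.7 CPM in young TCR, and the B cell receptor gene Cd22 fell to 0.823 CPM, against 6.07 CPM. With age 2 of 15 rose and 0 fell. Klrc1 reached 248.5 CPM in aged TRM, against 117 CPM in young TRM, and Lilrb4a reached 76.3 CPM, against 22.7 CPM.

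Among Tox relatives and transcription factors linked to exhaustion, 6 of 21 rose and 4 fell in young TRM, and 2 rose and 1 fell in aged TRM. Batf, an AP-1 partner, fell to 11.2 CPM in young TRM, against 62.7 CPM in young TCR, and Prdm1, which encodes BLIMP-1, fell to 3.09 CPM, against 18.0 CPM. Eomes and Id2 fell as well. Irf8 rose to 939 CPM in young TRM, against 278 CPM in young TCR. The others that rose were Id3, Nr4a1, Nr4a3, Ikzf2 and Maf. In aged TRM, relative to young TRM, Batf rose to 24.7 CPM, against 11.2 CPM, and Prdm1 rose to 7.45 CPM, against 3.09 CPM, while Id3 fell to 13.7 CPM, against 31.0 CPM. Tox4 had 147, 150 and 144 CPM and Tox3 stayed below 1 CPM in each sample.

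Of 20 surface and secreted genes linked to exhaustion, 5 rose and 5 fell in young TRM relative to young TCR, with a median log2 ratio of 0.03. The largest changes were in Cx3cr1, a chemokine receptor gene that rose to 37.9 CPM, against 0.247 CPM, in the ectoenzyme genes Nt5e and Entpd1 (log2 ratios of 2.82 and 2.43), and in the chemokine gene Ccl5, which fell to 4.74 CPM, against 32.3 CPM. Relative to young TRM, 6 rose and 2 fell in aged TRM, with a median of 0.62. Ifng, Ccl3 and Ccl5 rose by log2 ratios of 2.53, 2.07 and 1.48, Il10 rose to 6.86 CPM in aged TRM, against 0.965 CPM in young TRM, and Cx3cr1 fell by 1.82 on the log2 scale.

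**Figure D4:**
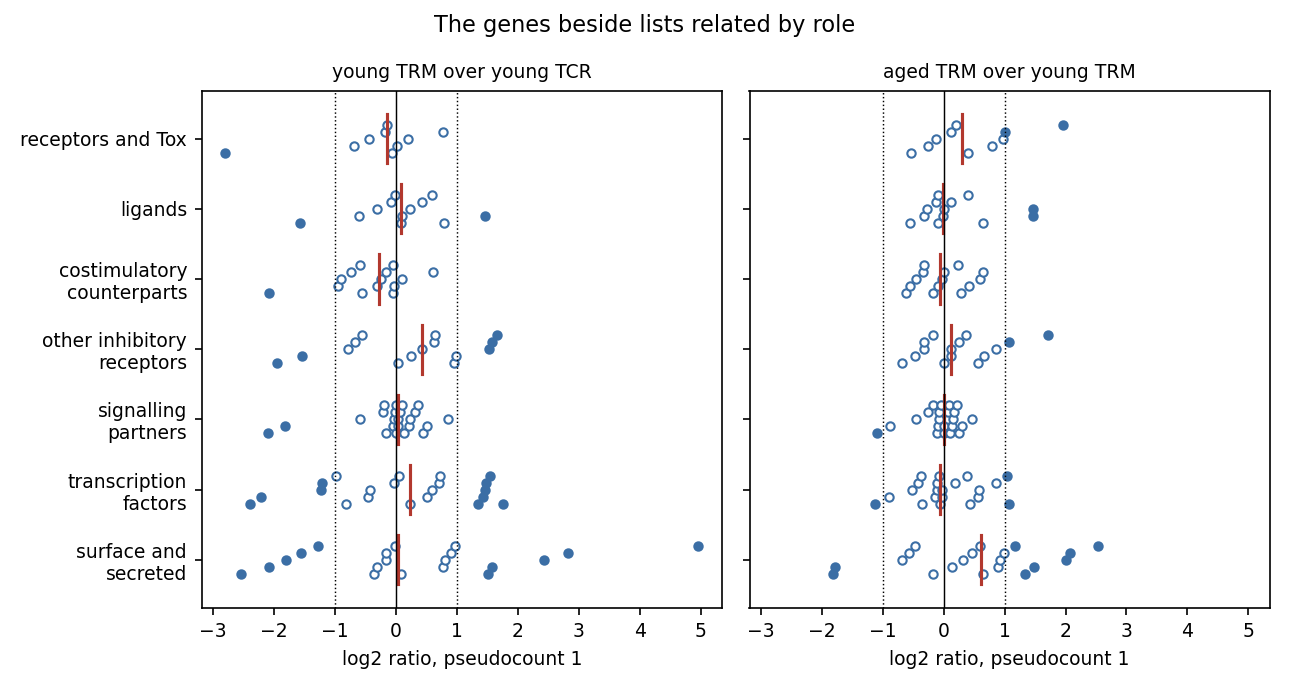
Log2 ratio of each tested gene (pseudocount 1) in the 10 genes and in 6 lists related by role, for young TRM over young TCR (left) and aged TRM over young TRM (right), with filled points for called genes, red bars at list medians and dotted lines at 2-fold. By median the signalling partners lie closest to 0 in both panels (0.029 and 0.010), though Trat1 and Sh2d1a fell on the left and Pag1 on the right. The surface and secreted genes are nearly level with them on the left (0.031) and have the highest median (0.62) in the right panel.

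The genes with levels most like those of Havcr2 and Cd160 were sought among 9208 genes of at least 10 CPM in some sample, by the Euclidean distance of centred log2 CPM over the 6 columns of the 3 samples. With 3 samples many genes share a pattern, and likeness says nothing of shared control. Nearest to Havcr2 were Ccdc184 (distance 0.354), Bst1 (0.397) and H2-Q10 (0.531). Ccdc184 had 9.32, 1.28 and 13.99 CPM in aged TRM, young TRM and young TCR. Nearest to Cd160 were Galnt3 (0.205), H1f0 (0.214) and Aqp9 (0.215), of which Galnt3 had 27.7, 12.8 and 21.04 CPM. Each of these genes was lowest in young TRM, which follows from their choice by likeness to Havcr2 and Cd160 in the same columns.

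**Figure D5:**
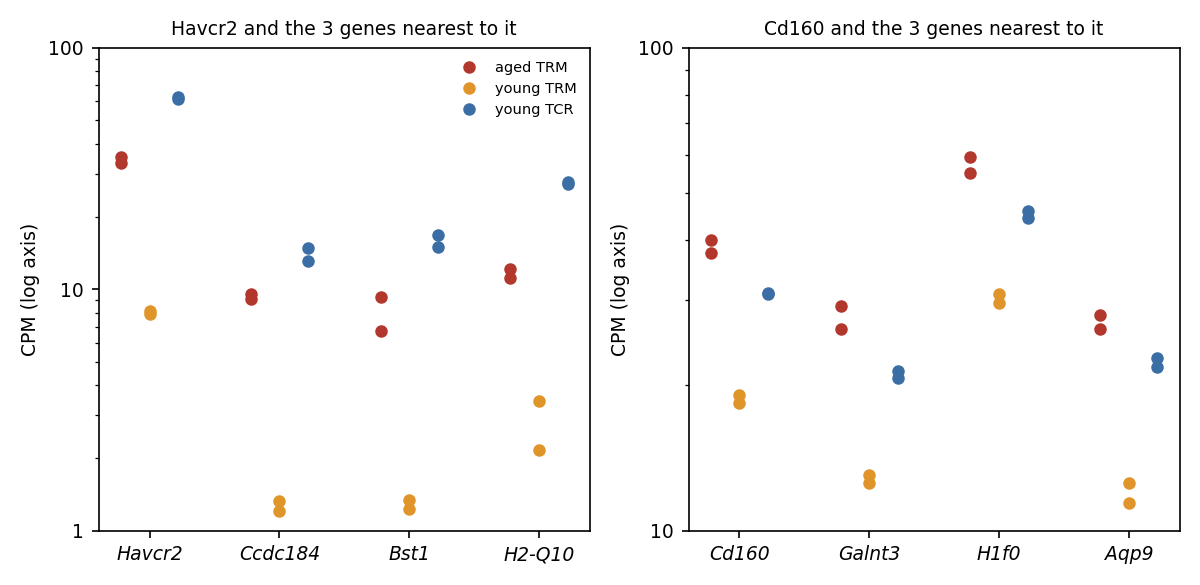
CPM on a log axis, 1 point per numbered column, of Havcr2 (left) and Cd160 (right) beside the 3 genes nearest to each, with aged TRM, young TRM and young TCR from left to right. Young TRM is the lowest sample for Havcr2, at 8.03 CPM against 34.3 CPM in aged TRM and 61.8 CPM in young TCR. It is also lowest for the genes beside it and beside Cd160, which were chosen for likeness in these columns.

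The labelled cell type was checked by T cell markers. The 9 listed markers summed to 4226 CPM in aged TRM, 4605 CPM in young TRM and 3193 CPM in young TCR, of which Cd8a made up 1632, 1822 and 747 CPM and Cd8b1 518, 593 and 424 CPM. Cd8a rose in young TRM, and no other T cell marker was called. Trac was not analysed here. Stromal and endothelial markers summed to 65.3, 83.4 and 86.8 CPM, most of it Pecam1, with none called and Cdh5 at 0 in young TCR. Of 5 gamma-delta T cell markers Sox13 alone was analysed here, at 0.123, 0.199 and 0.247 CPM.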

How the data were processed

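Total RNA from 3 samples of cultured mouse CD8+ T cells was sequenced, per the labels' protocols. The submitters' processing notes name Bowtie and GRCm38 (mm10). The counter, annotation, strand setting and handling of reads matching several genes were not stated. The deposited values were an estimated count and a TPM per gene and column, per the file headers. A further 24 value columns were not used. The 2 numbered columns per sample were treated as repeat runs.

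Estimated counts were rounded, summed per sample and scaled with TMM factors (edgeR 4.0.16, R 4.3.3). Intervals are Clopper-Pearson (scipy 1.17.1). Genes under 1 CPM in both libraries were left out, and a call needed a log2 ratio of at least 1 in size (pseudocount 1) with a 95% interval that left out 1. PCR reads are not independent molecules, so intervals cover counting error only. With 1 sample per group no p-value was computed. The rule was run on the whole table. It was also run on simulated counts with counting error alone, which cannot show how it behaves under variation between mice or cultures. Alternatives were totals-only scaling, DESeq2 1.42.0 size factors, other pseudocounts and filters, the authors' TPM and each column alone.

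The 10 genes and the 14 gene lists were chosen with earlier results of these data known. All 10 genes are reported, with up to 4 called genes of each related list and comparison by size of ratio, the 3 genes nearest to each called gene, and Foxp3, Cd4, Cd8a, Cd8b1 and Ncr1. Some genes that the rule names are not reported here. Other called genes, ligands, counterparts, neighbours and markers were named for their role after their values were seen. Of 204 list entries, 7 were not analysed here. Of 17121 gene IDs, 17071 matched the RefSeq table of GRCm38.p6, the source of positions and promoters. Exon overlap came from GENCODE annotation of the same build.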

Additional observations from a re-analysis of the deposited data

How the results depend on the processing

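Each comparison was recomputed under 9 alternatives. Of 178 values of single genes so obtained, 5 changed their call. In aged TRM over young TRM the number of these genes called was 1 with a pseudocount of 5, against 2, since Cd160 was lost (log2 ratio 0.88). With column 1 alone Cd160 was lost (0.94) and Lag3 gained (1.08), and Lag3 was also gained with totals-only scaling (1.02) and the authors' TPM (1.03), for which no counting interval exists. In that comparison the median log2 ratio over all genes was 0.034 with totals-only scaling and 0.042 with the authors' TPM. It was -0.007 with column 1 alone, against -0.006 with the settings used above. The cause of the changed calls was not tested. The log2 ratio of Havcr2 stayed between -2.87 and -2.36 in young TRM over young TCR and between 1.59 and 2.03 in aged TRM over young TRM, and it was called in both under the 9 alternatives. Over these alternatives 18 of 20 ratios kept 1 sign. The exceptions were Pdcd1 in young TRM over young TCR (-0.04 to 0.06) and Tox2 in aged TRM over young TRM (-0.04 to 0.81), neither of them called. With a pseudocount of 5, 296 genes of the whole table were called higher and 190 lower in young TRM over young TCR, against 484 and 417, and 87 higher and 62 lower in aged TRM over young TRM, against 260 and 133. With a filter at 10 CPM the counts were 349 and 234 in young TRM over young TCR and 123 and 91 in aged TRM over young TRM, as fewer genes were tested. Depth limits Tox2, with 6 to 52 reads per sample. No paired analysis was possible because each group held 1 sample and the labels give no replicate numbers.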
